A study of Homo sapiens and Mus musculus with 12 samples.

Results

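The Polycomb genes described here are 29 genes for the 2 repressive Polycomb complexes and the H3K27 demethylases, taken by name from a list and not by their values. They fall into 6 classes: 6 PRC2 core genes, 5 PRC2 accessory genes, the 2 catalytic PRC1 genes, 9 genes of canonical PRC1, 5 of variant PRC1 and 2 H3K27 demethylases. In RKO cells 27 of them had a value among 15590 genes, while PHF1 and RING1 were not analysed here in that line; in mouse colon all 29 had a value among 17383 genes. RKO is a human colon cancer cell line. Its cells stably carried an shRNA against ZNF280C, a zinc finger protein gene, behind a tetracycline-inducible promoter, and gave 3 libraries with 1 µg/ml doxycycline and 3 libraries without doxycycline, both at 72 h. All 6 RKO libraries thus shared the construct, 1 shRNA was used, and doxycycline and knock-down cannot be told apart. The mouse libraries came from colon tissue at 12 weeks of age, 3 from Zfp280c knock-out mice and 3 from wild-type C57BL/6J mice; the labels name neither the segment of colon nor how the knock-out was made. The labels do not say that libraries of 1 group came from separate cultures or animals, so p-values measure only the spread between these libraries, which may be technical.

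PRC2 adds methyl groups to lysine 27 of histone H3, and PRC1 adds ubiquitin to histone H2A. Canonical PRC1 is drawn to methylated H3K27 through its CBX subunits, whereas variant PRC1 assembles around other PCGF subunits and can reach chromatin without that mark. In intestine and colon tumours EZH2 is known as the catalytic subunit of dividing cells and as a target of E2F transcription factors, while its paralog EZH1 is also expressed in resting cells.

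The targeted gene was checked first. ZNF280C fell: it had signals of 123, 99.6 and 79.1 with doxycycline, against 192, 172 and 227 without, a log2 fold change of -0.98 ± 0.15 (SE) with a limma adjusted p of 0.0276. Its groups did not overlap, but with 1 library left out the call held in 1 of 6 fits, with adjusted p-values between 0.0294 and 0.0922. Zfp280c had 0.09, 0.09 and 0.22 FPKM in knock-out colons, against 2.48, 2.25 and 3.17 FPKM in wild-type colons, with no overlap and a limma adjusted p of 0.123. RKO values are the deposited signal, which is not per gene length, so RKO levels are compared only within a gene; colon values are FPKM, which is per length. Summed over all genes, signal ranged between 9050160 and 9195210 in RKO libraries and FPKM between 491900 and 507206 in colon libraries. Epithelial markers were present in both systems: EPCAM had signals of 68.5 to 76.5 over the 6 RKO libraries and Epcam 917 to 1061 FPKM over the 6 colon libraries. In RKO cells CDX2, an intestinal transcription factor, was called higher, with signals of 214, 221 and 226 with doxycycline, against 181, 171 and 179 without (log2 fold change 0.31, limma adjusted p 0.0335), and KRT8 had 0.23 with an adjusted p of 0.0523 and no overlap. CDH1, KRT19 and CDX1 were not analysed here in RKO cells.

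Wild-type colon library 2 stood apart from the other 2 wild-type libraries. Hoxb6, a HOX gene of the proximal colon, had 18.2, 8.91 and 17.6 FPKM in knock-out colons, against 0.65, 18.2 and 0.20 FPKM in wild-type colons. Hoxb13, a HOX gene of the distal colon, had 2.23, 12.9 and 18.9 FPKM in knock-out colons, against 336, 14.7 and 507 FPKM in wild-type colons. By both genes wild-type library 2 resembled the knock-outs, yet its Zfp280c level was that of a wild-type. Wild-type libraries 1 and 3 differed from each other in further distal HOX genes. Hoxd13 had 0.96 FPKM in library 1 and 68.45 FPKM in library 3. Hoxd10, Hoxd11 and Hoxd12 had 0.26, 0.18 and 0.09 FPKM in library 1, against 4.57, 4.39 and 1.76 FPKM in library 3. Summed smooth muscle markers were 419, 486 and 308 FPKM in knock-out colons, against 203, 398 and 236 FPKM in wild-type colons, and summed immune markers 49.9, 47.3 and 68.5 FPKM in knock-out colons, against 134, 57.1 and 84.5 FPKM in wild-type colons. Colon counts and the members whose call rests on wild-type library 2 are therefore given with and without it. In RKO cells, libraries of opposite groups shared exactly equal values: 310 genes between doxycycline 2 and no doxycycline 2, and 526 genes between doxycycline 3 and no doxycycline 1, among them KDM2B, against 0 in every other pair.

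In RKO cells 1 of the 27 Polycomb genes passed the limma test, EZH2, and it fell. Over all 15590 genes tested, 1.14% passed in either direction and 0.757% passed as lower with doxycycline. That is 60 genes higher and 118 lower as deposited; scaling the libraries to equal sums gave 59 higher and 67 lower. At an unadjusted p under 0.05, 6 members were counted, 1 higher and 5 lower, against 17% of all genes. Groups did not overlap for 6 members, 22.2% of them, against 22% of all genes. The members' median log2 fold change was -0.07, with 19 of 27 negative, and the median over all genes was -0.01.

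**Figure D1:**
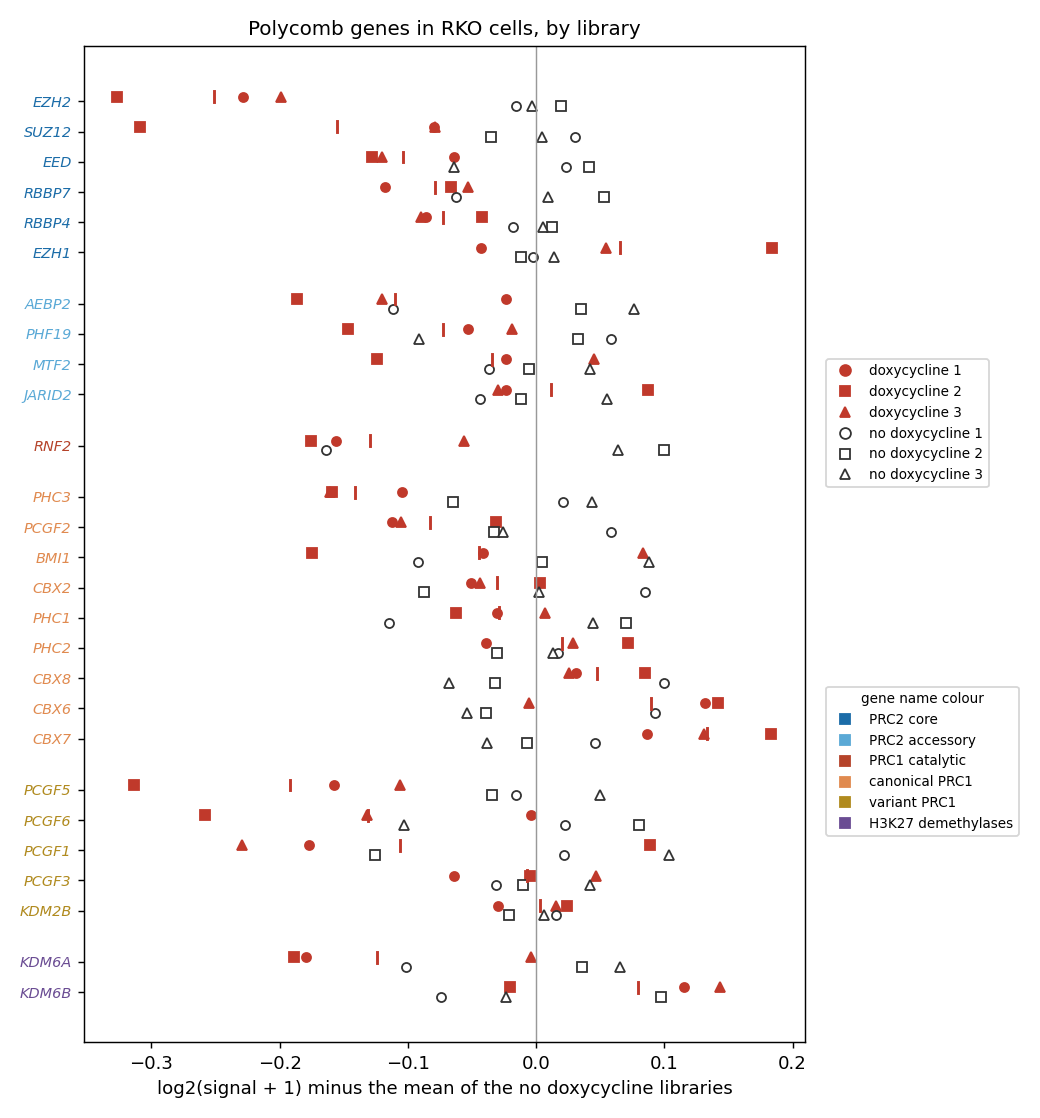
Polycomb genes in RKO cells: the x axis is log2(signal + 1) minus the mean of the 3 libraries without doxycycline, filled red symbols are the 3 doxycycline libraries, open symbols the 3 without, and the red tick is the doxycycline mean. EZH2 sits at -0.25, SUZ12, RBBP4, PHC3 and PCGF5 lie left of every open symbol, and CBX7 lies right of them.

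Among the 6 PRC2 core genes, EZH2 was called, and SUZ12 and RBBP4 also had groups that did not overlap, which makes 3 of 6, against 22% of all genes. EZH2, the main H3K27 methyltransferase of dividing cells, had signals of 844, 789 and 862 with doxycycline, against 979, 1003 and 987 without. All doxycycline libraries lay below all libraries without it, at 84.0% of their mean, a log2 fold change of -0.25 ± 0.04 (SE) with a limma adjusted p of 0.0335. The direction held whichever library was left out (log2 fold change -0.28 to -0.21), but the call was lost in each of these 6 fits, with limma adjusted p-values between 0.0634 and 0.139. Over all 15590 genes these fits kept between 1 and 24 calls, against 178 with all libraries, so the loss was not particular to EZH2. The EZH2 call was also lost when the libraries that share equal values were paired, with a limma adjusted p of 0.206. This alternative was chosen after seeing the data, and 0 of all genes were called in it. Its last pair was doxycycline 1 and no doxycycline 3, which shared 0 values. Deviations from the group means correlated negatively in each pair. They were -0.53 for doxycycline 2 and no doxycycline 2, -0.34 for doxycycline 3 and no doxycycline 1, and -0.28 for the last pair.

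SUZ12, the scaffold of PRC2, had signals of 1031, 879 and 1031 with doxycycline, against 1113, 1063 and 1093 without. Doxycycline library 2 was the lowest, all 3 lay below the libraries without doxycycline, and the log2 fold change of -0.16 ± 0.06 (SE) missed the limma threshold at an adjusted p of 0.218. Without doxycycline library 2 it was -0.08, with 0.433. RBBP4, a histone-binding subunit shared with other chromatin complexes, had signals of 1886, 1944 and 1881 with doxycycline, against 1977, 2019 and 2009 without. These groups did not overlap either, at a log2 fold change of -0.07 and an adjusted p of 0.290. Its paralog RBBP7 had signals of 1178, 1221 and 1232 with doxycycline, against 1224, 1326 and 1287 without. EED, the subunit that binds methylated H3K27, had signals of 234, 224 and 225 with doxycycline, against 248, 252 and 234 without. For RBBP7 and EED the groups overlapped, with adjusted p-values of 0.364 and 0.350.

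EZH1 was the core gene with a positive value. It had signals of 272, 319 and 291 with doxycycline, against 280.1, 278 and 283 without, a log2 fold change of 0.07 ± 0.06 (SE) with an adjusted p of 0.646. It was 0.01 without doxycycline library 2 and 0.12 without doxycycline library 1. Doxycycline library 1 lay below all libraries without doxycycline and the other 2 above them. Doxycycline library 2 held both the lowest EZH2 and the highest EZH1 signal. The log2 ratio of EZH2 to EZH1 within a library, which depends on transcript length in its level but not in its difference between groups, was 1.63, 1.30 and 1.56 with doxycycline, against 1.80, 1.85 and 1.80 without. The groups did not overlap and differed by -0.32; the exact two-sided permutation p was 0.1, the smallest that 3 against 3 libraries allow, and 0.30 after adjustment over the 9 paralog ratios tested.

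The median log2 fold change of the 6 core genes was -0.09. The 4 PRC2 accessory genes with a value, which steer the complex to its sites, had a median of -0.05 and 0 limma calls, also 0 at an unadjusted p under 0.05. AEBP2 had the most negative value, a log2 fold change of -0.11, and JARID2 the sole positive one, 0.01; PHF19 and MTF2 lay between them, and no pair of groups was separated.

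E2F-type letters were looked up in promoters because the core gene that passed is a known E2F target. Windows from 250 bases before to 50 after the transcription start were taken from RefSeq (GRCh38.p14) for 27 of the 29 members, CBX2 and CBX8 being named only. The letters TTTCCCGC, TTTCGCGC, TTTGCCGC or TTTGGCGC, on either strand, occurred in 3.31% of 35116 windows of all genes and in 6 of the members' 42 windows, 14.3%. Those 6 windows belonged to 6 of the 11 PRC2 genes and to 0 of the 16 others. A match describes letters and is not a binding site. Below is the matching window of the 2 for EZH2, up to 30 bases after the start. For comparison, the matches in the other 5 genes follow with up to 25 bases on each side. All are written 5′ to 3′ on the gene's strand, with the 8 matched letters in capitals.
EZH2 (chr7:148884262-148884541, minus strand): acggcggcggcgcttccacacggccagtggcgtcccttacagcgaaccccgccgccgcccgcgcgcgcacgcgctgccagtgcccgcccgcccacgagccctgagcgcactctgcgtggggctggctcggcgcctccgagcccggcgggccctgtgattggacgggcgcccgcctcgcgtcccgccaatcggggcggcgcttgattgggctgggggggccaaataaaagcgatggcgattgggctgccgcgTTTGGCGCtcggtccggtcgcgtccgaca
SUZ12 (chr17:31936793-31936850, plus strand): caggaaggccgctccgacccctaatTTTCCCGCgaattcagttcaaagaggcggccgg
EZH1 (chr17:42745123-42745180, minus strand): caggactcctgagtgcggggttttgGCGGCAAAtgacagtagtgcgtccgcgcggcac
MTF2 (chr1:93079263-93079312, plus strand): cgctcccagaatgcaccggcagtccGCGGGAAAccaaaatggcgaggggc
PHF19 (chr9:120877308-120877365, minus strand): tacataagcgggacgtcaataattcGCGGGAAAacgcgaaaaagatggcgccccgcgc
AEBP2 (chr12:19440424-19440481, plus strand): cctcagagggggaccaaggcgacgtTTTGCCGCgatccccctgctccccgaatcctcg
EZH2 and SUZ12 matched on the gene's strand, as did AEBP2, and EZH1, MTF2 and PHF19 on the other strand. Of the 6 matching genes 5 had a negative log2 fold change in RKO cells, from EZH2 at -0.25 to MTF2 at -0.03, against 55.1% of all genes. EZH1 had a positive one. EZH2 was called and the other 5 were not. EZH2, SUZ12, AEBP2 and MTF2 had transcripts with a GC content below the median of all genes, 48.3%, and PHF19 and EZH1 above it. Of all genes below that median 73.3% were negative, and the part of GC content in these signs was not tested. Shorter or other letters were more frequent over all genes. The same letters without the first T occurred in 13% of all windows and in 11 of the 42 member windows (10 genes). CCAAT occurred in 34.6% of all windows and in 18 of the 42 (13 genes). TTTGAA, the letters of the cell cycle homology element, occurred in 15.2% of all windows and in 3 of the 42 (3 genes). The first of these contains the E2F-type letters above and so overlaps them.

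Of the catalytic PRC1 genes, RNF2, the main H2A ubiquitin ligase, had signals of 412, 407 and 442 with doxycycline, against 410.2, 492 and 480.3 without. Library 1 without doxycycline lay among the doxycycline libraries, and the log2 fold change of -0.13 had an adjusted p of 0.383.

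The 9 canonical PRC1 genes had a median log2 fold change of -0.03, with 4 positive and 5 negative. There were 0 limma calls, and 2 genes had an unadjusted p under 0.05, against 17% of all genes. CBX7, a subunit that reads methylated H3K27, had signals of 499, 534 and 515 with doxycycline, against 485, 468 and 458 without. All 3 doxycycline libraries lay above the others, at a log2 fold change of 0.13 ± 0.04 (SE) and an adjusted p of 0.161. PHC3, a polyhomeotic subunit that links PRC1 complexes to each other, had signals of 693, 667 and 667 with doxycycline, against 756, 713 and 768 without. Here all doxycycline libraries lay below, at -0.14 ± 0.04 (SE) and an adjusted p of 0.128.

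The other canonical genes overlapped between groups. CBX8, the paralog of CBX7, had signals of 249, 259 and 248 with doxycycline, against 261, 238 and 232 without. PCGF2 had 1383, 1462 and 1389.6 with doxycycline, against 1557, 1461 and 1468 without. BMI1, its paralog and the better known PCGF subunit of canonical PRC1, had 413, 377 and 451 with doxycycline, against 399, 427 and 452 without. Log2 fold changes were 0.05, -0.08 and -0.04 for CBX8, PCGF2 and BMI1, with adjusted p-values of 0.747, 0.333 and 0.811. CBX2, CBX6, PHC1 and PHC2 ranged between -0.03 and 0.09.

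The 5 variant PRC1 genes had a median log2 fold change of -0.11 and 0 limma calls. At an unadjusted p under 0.05, 1 gene was counted, against 17% of all genes. PCGF5, the subunit of a variant complex that also holds AUTS2 in neurons, had signals of 621, 557 and 644 with doxycycline, against 686, 676 and 717 without. Doxycycline library 2 was again the lowest, the groups did not overlap, and the log2 fold change was -0.19 ± 0.06 (SE) with an adjusted p of 0.120. PCGF1, PCGF3, PCGF6 and KDM2B, the CpG-binding partner of PCGF1, lay between -0.13 and 0.00 with overlapping groups.

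Of the demethylases, KDM6A had signals of 458, 455 and 518 with doxycycline, against 484, 532 and 543 without. KDM6B had 1583, 1441 and 1614 with doxycycline, against 1389, 1563 and 1438 without. Neither was separated, with log2 fold changes of -0.12 and 0.08 and adjusted p-values of 0.353 and 0.515. Their ratio within a library was separated: log2 KDM6A to KDM6B was -1.79, -1.66 and -1.64 with doxycycline, against -1.52, -1.55 and -1.40 without, a difference of -0.20 with an exact permutation p of 0.1. The CBX8 to CBX7 ratio was separated as well, with a difference of -0.09 and the same p, and PCGF2 to BMI1 was not, with -0.04 and an exact p of 0.7. The adjusted p over the 9 ratios was 0.30 for each of the separated ratios.

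**Figure D2:**
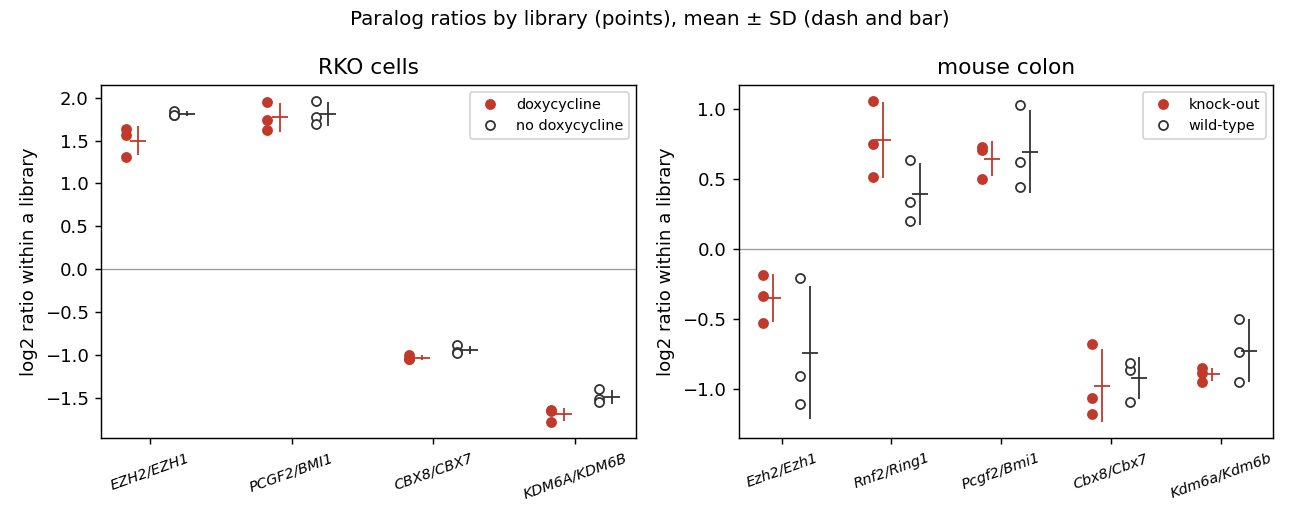
Log2 ratio of 2 paralogs within each library, in RKO cells (left) and mouse colon (right); filled points are doxycycline or knock-out libraries, open points the libraries without doxycycline or wild-type, and the dash and bar are the mean ± SD of 3. EZH2 to EZH1 is lower in every doxycycline library of RKO cells, while in colon the wild-type points for Ezh2 to Ezh1 spread between -1.11 and -0.21 and overlap the knock-outs.

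The change of the members in RKO cells went with the GC content of their transcripts. Over the 27 members Spearman's rho between log2 fold change and GC was 0.72, and over 13110 genes with a GC content it was 0.44; these are descriptions across genes that share the same 6 libraries, and genes are not independent replicates. All 14 members with a GC content below the median of all genes, 48.3%, had a negative log2 fold change, against 73.3% of all genes below it. Of the 13 members at or above it, 5 were negative, against 38.5% of all such genes. After a smooth GC trend was removed within each library, 11 of the 14 and 9 of the 13 were negative. Of all genes, 3502 of 6555 below the median and 3850 of 6555 at or above it were then negative. EZH2 was still called, at a log2 fold change of -0.21 and a limma adjusted p of 0.0338, while of the other separated members SUZ12 moved to -0.08, RBBP4 to -0.02, PHC3 to -0.07, PCGF5 to -0.10 and CBX7 to 0.07. EED moved to -0.01, and PCGF2 went the other way, to -0.13 with an adjusted p of 0.0920.

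**Figure D3:**
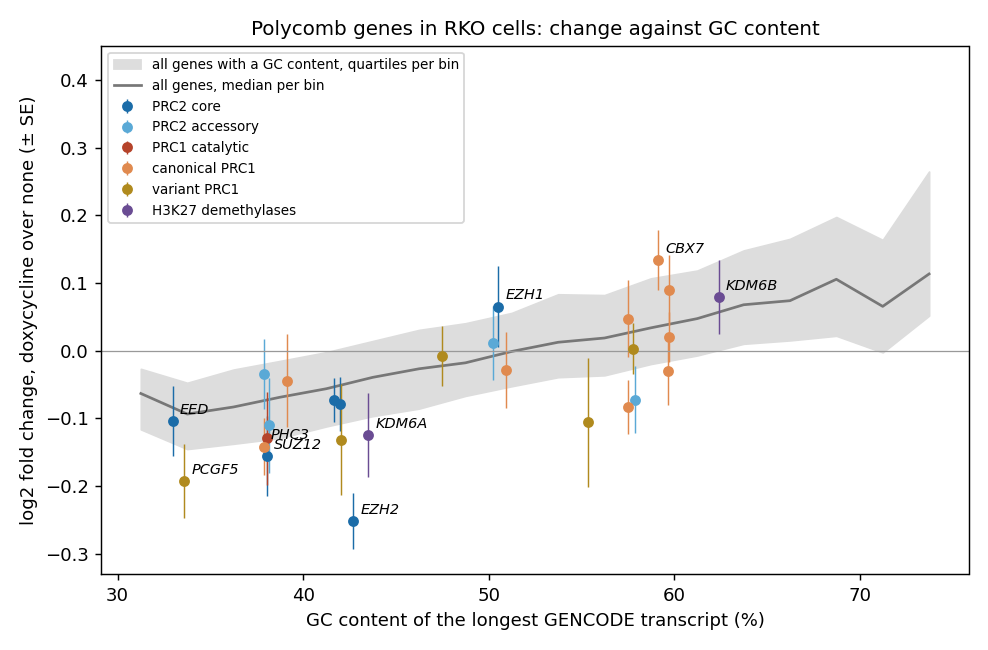
Log2 fold change of each Polycomb gene in RKO cells (points, ± SE, coloured by class) against the GC content of its longest GENCODE transcript in %, with the median (line) and quartiles (band) of all genes. The members with low GC content lie below 0 as the line does, and EZH2 lies below the band at a GC content of 42.7%.

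Genes of dividing cells had negative values, as EZH2 did. All 30 genes of a proliferation list had a negative log2 fold change in RKO cells, against 55.1% of all genes, with a median of -0.15, against -0.01 over all genes. Of all genes below the median GC content 73.3% were negative, and of those at or above it 38.5%. The part of GC content in the 30 values was not tested. Of the 30, 5 were called lower, against 0.757% of all genes: CCNA2 (cyclin A), TYMS (thymidylate synthase), BIRC5 (survivin) and the E2F family genes E2F2 and E2F7, at log2 fold changes of -0.25, -0.24, -0.21, -0.32 and -0.26. All 5 calls were lost in each of the 6 fits that leave out 1 library, with limma adjusted p-values of at least 0.0543, while the sign held. Over all genes these fits kept between 1 and 24 calls, against 178 with all libraries. The mean log2 level of the list was 10.06, 10.05 and 10.14 with doxycycline, against 10.26, 10.24 and 10.23 without, so the 2 groups were separated in the same direction as EZH2. Its part in the EZH2 result was not tested. In these bulk samples, fewer cells of a type and less RNA per cell cannot be told apart.

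Among the partners of the complexes in RKO cells, ASH2L passed the limma test, against 1.14% of all genes. Of 23 other PRC1 partners, 0 passed and 5 had an unadjusted p under 0.05, against 17% of all genes; the 4 lowest were FBRSL1 at 0.16, YAF2 at -0.17, SCML1 at -0.18 and L3MBTL2 at 0.13 (log2 fold changes). Of 3 other PRC2 partners, 0 passed, also at an unadjusted p under 0.05, and LCORL had -0.16. Of 8 subunits of the KDM6A-containing COMPASS complexes, which methylate H3K4, ASH2L fell at -0.22 ± 0.04 (SE) with a limma adjusted p of 0.0459. ASH2L had signals of 391, 395 and 404 with doxycycline, against 478, 461 and 449.6 without, with no overlap. Its call was lost in all 6 fits that leave out 1 library, with adjusted p-values between 0.0896 and 0.157, and with the libraries that share values paired, with 0.233. Over all genes the 6 fits kept between 1 and 24 calls and the pairing 0, against 178 in the main fit. Of 44 developmental genes known as Polycomb targets in other cells, 12 had a value, 9 of them positive, against 44.9% of all genes, with a median of 0.06. Among genes at or above the median GC content 4029 of 6555 were positive, and the part of GC content in the 12 values was not tested. None of the 12 passed the limma test and 5 had an unadjusted p under 0.05, against 17% of all genes: NKX2-5 and FOXF1 at 0.18 and 0.29 were among the positive ones, and CDKN2B and PAX6 at -0.28 and -0.49 were negative.

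In mouse colon 28 of the 29 members had a mean of at least 1 FPKM and were tested, and 0 passed the limma test, as did 0% of the 11366 genes tested. At an unadjusted p under 0.05, 1 member was counted, against 12.5% of all genes. Groups did not overlap for 3 members, 10.7% of them, against 16.9% of all genes. The median log2 fold change was -0.01, with 13 positive and 15 negative, and -0.02 over all genes. Wild-type library 2 was nearer to the knock-out mean than to the mean of the other 2 wild-types for 19 members, 67.9%, against 70.0% of all genes. Without it, 3 members passed, Pcgf3 and Suz12 higher and Pcgf5 lower, which is 3 of 28 against 16.4% of all genes, so the members' share was not above the background. Without library 2 the remaining wild-types both had high Hoxb13 and low Hoxb6, and the knock-outs the reverse. Genotype and this HOX pattern therefore cannot be told apart in that fit. With the HOX difference as a covariate 0 members passed, as did 0% of the 11366 genes tested.

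**Figure D4:**
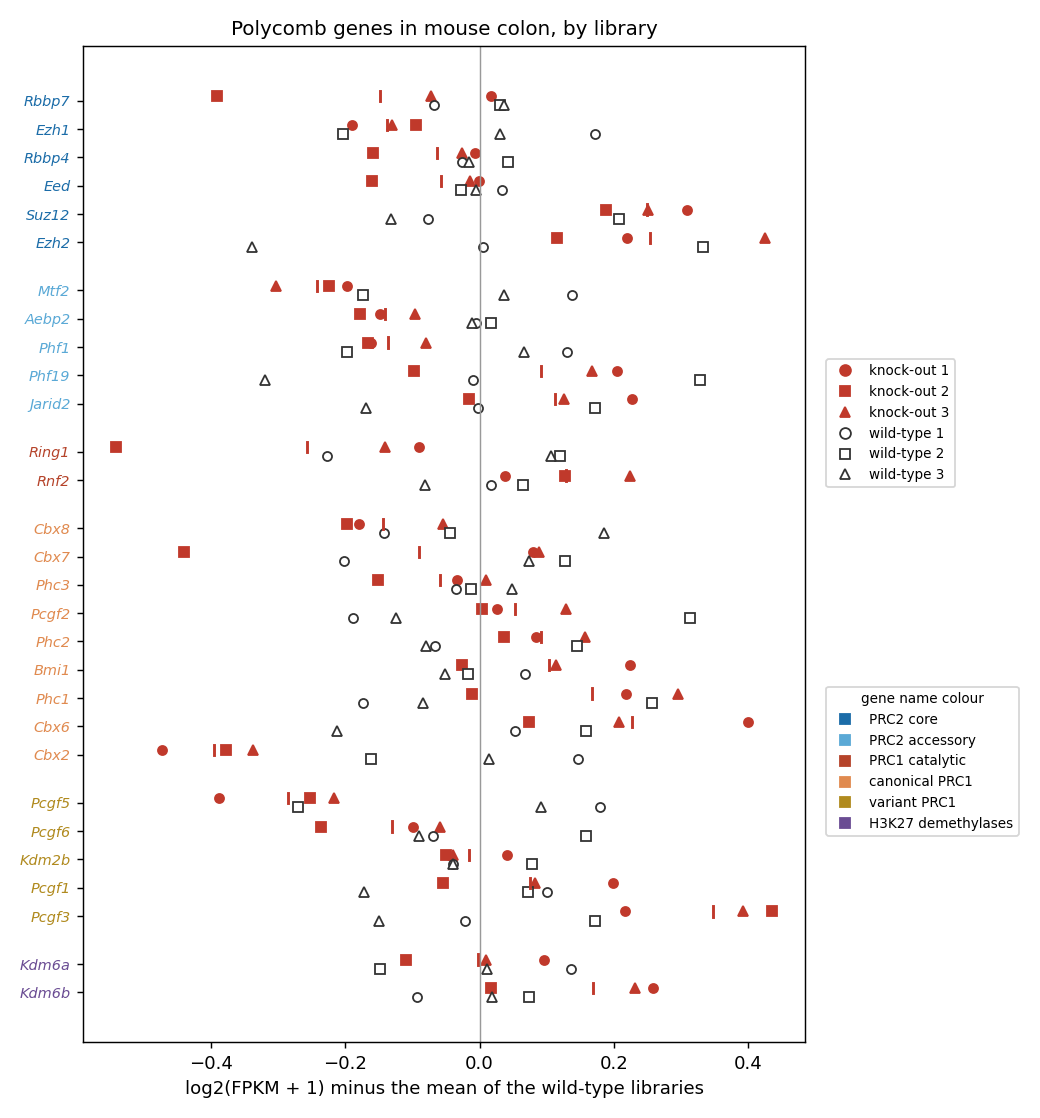
Polycomb genes in mouse colon: the x axis is log2(FPKM + 1) minus the mean of the 3 wild-type libraries, filled red symbols are the 3 knock-out libraries, open symbols the 3 wild-type libraries, and the red tick is the knock-out mean. For Suz12, Mtf2 and Pcgf5 the open square, wild-type library 2, lies near the knock-outs and away from the other open symbols.

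Levels per length differed widely among the members in colon. Rbbp7 was the most abundant, at 53.3 ± 7.78 FPKM in knock-out colons and 58.7 ± 2.41 FPKM in wild-type colons (SD, n = 3 each). Pcgf3, Phc2, Phf1 and Rbbp4 followed, with means over the 6 libraries between 21.9 and 24.1 FPKM. Ezh1 averaged 12.8 ± 0.46 FPKM in knock-out colons and 14.3 ± 1.97 FPKM in wild-type colons, and Ezh2 9.87 ± 1.20 FPKM in knock-out colons and 8.24 ± 2.13 FPKM in wild-type colons (SD, n = 3 each). Cbx8 and Cbx2 were the lowest, at 1.52 and 0.98 FPKM over all 6 libraries, and Cbx2 was left out of the test by the minimum of 1.

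Of the PRC2 core, Suz12 and Ezh2 had positive values. Suz12 had 15.3, 14.0 and 14.6 FPKM in knock-out colons, against 11.45, 14.2 and 10.98 FPKM in wild-type colons. Wild-type library 2 lay among the knock-outs; the log2 fold change was 0.25 ± 0.11 (SE) with a limma adjusted p of 0.398, and without that library 0.35 with 0.0428. Ezh2 had 9.57, 8.84 and 11.2 FPKM in knock-out colons, against 8.11, 10.4 and 6.18 FPKM in wild-type colons. Again wild-type library 2 lay among the knock-outs; the log2 fold change was 0.25 ± 0.18 (SE) with an adjusted p of 0.547, without that library 0.42 with 0.106, and without wild-type library 3 0.08 with 0.962. With the difference of proximal and distal HOX genes as a covariate Ezh2 moved to -0.09, and Suz12 to 0.06.

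Ezh1 had 12.3, 13.2 and 12.9 FPKM in knock-out colons, against 16.1, 12.2 and 14.5 FPKM in wild-type colons. Wild-type library 2 had the lowest Ezh1 level of the 6 and the highest Ezh2 level of the wild-types, and the Ezh1 log2 fold change of -0.14 had an adjusted p of 0.588. The log2 ratio of Ezh2 to Ezh1 was -0.33, -0.53 and -0.19 in knock-out colons, against -0.91, -0.21 and -1.11 in wild-type colons, a difference of 0.39 with an exact permutation p of 0.3. It was 0.66 without wild-type library 2, with an exact p of 0.1, and 0.21 without wild-type library 3, with 0.6. Eed, Rbbp4 and Rbbp7 had negative log2 fold changes of -0.06, -0.06 and -0.15, with overlapping groups. The mean log2 level of the proliferation list was 2.84, 2.41 and 2.91 in knock-out colons, against 2.38, 2.93 and 2.004 in wild-type colons, which ranks the libraries as Ezh2 does except that the highest 2 change places. The part of proliferation or of the HOX pattern in the Ezh2 values was not tested.

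**Figure D5:**
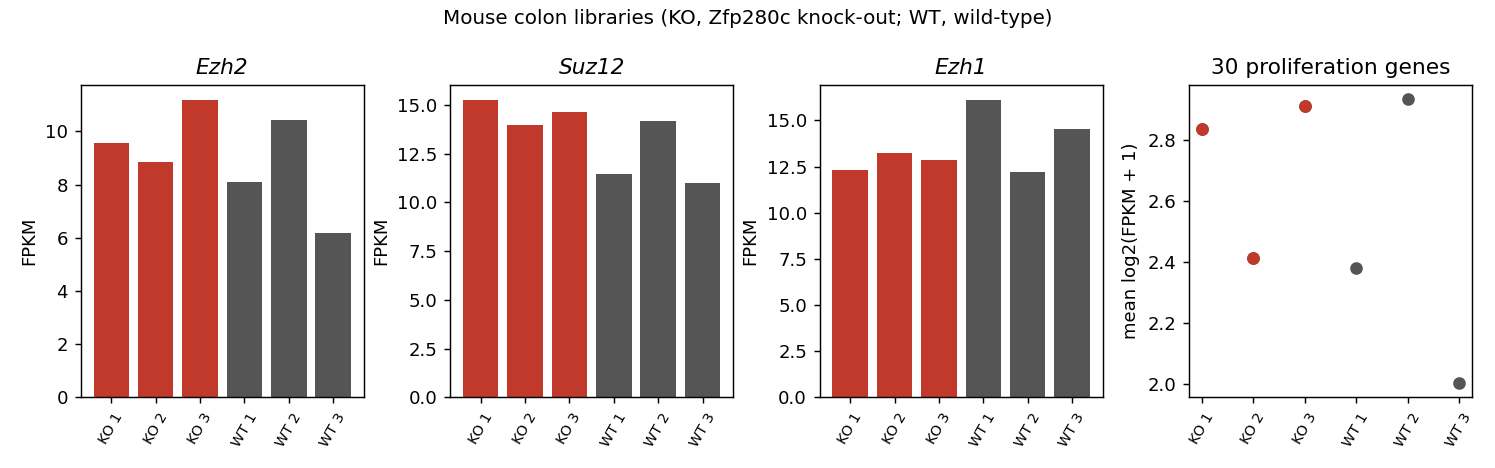
Ezh2, Suz12 and Ezh1 in FPKM (bars, 1 per library) and the mean log2(FPKM + 1) of 30 proliferation genes (points) in 3 knock-out (KO, red) and 3 wild-type (WT, grey) mouse colon libraries. For Ezh2, Suz12 and the proliferation list WT 2 stands with the knock-outs, and for Ezh1 it is the lowest wild-type.

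Of the 5 PRC2 accessory genes, Mtf2 and Aebp2 were separated between groups, against 16.9% of all genes. Mtf2, which binds unmethylated CpG-rich DNA, had 8.19, 8.02 and 7.54 FPKM in knock-out colons, against 10.6, 8.34 and 9.81 FPKM in wild-type colons. Aebp2, a DNA-binding partner of a different PRC2 subtype, had 9.23, 9.02 and 9.60 FPKM in knock-out colons, against 10.3, 10.5 and 10.2 FPKM in wild-type colons. All knock-outs lay below all wild-types in both, at log2 fold changes of -0.24 and -0.14 and adjusted p-values of 0.398 and 0.439. With the HOX covariate Mtf2 was at -0.12 and Aebp2 at -0.16. Phf1, Phf19 and Jarid2 overlapped, at -0.14, 0.09 and 0.11.

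The catalytic PRC1 genes differed in sign. Rnf2 had 11.2, 11.9 and 12.8 FPKM in knock-out colons, against 10.98, 11.4 and 10.2 FPKM in wild-type colons. Ring1, its paralog, had 7.48, 5.20 and 7.19 FPKM in knock-out colons, against 6.71, 8.81 and 8.72 FPKM in wild-type colons. Neither was separated, at log2 fold changes of 0.13 and -0.26 and adjusted p-values of 0.531 and 0.491. Their log2 ratio averaged 0.78 ± 0.27 in knock-out colons and 0.39 ± 0.22 in wild-type colons (SD, n = 3 each), with an exact permutation p of 0.2.

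The 8 canonical PRC1 genes tested had a median of 0.07, with 5 positive, and 0 at an unadjusted p under 0.05. Cbx6 had the highest value among them, with 2.70, 1.95 and 2.24 FPKM in knock-out colons, against 1.91, 2.13 and 1.42 FPKM in wild-type colons, a log2 fold change of 0.23 with overlapping groups, and 0.02 with the HOX covariate. Cbx7 had 4.29, 2.69 and 4.32 FPKM in knock-out colons, against 3.35, 4.47 and 4.27 FPKM in wild-type colons. Cbx8 had 1.33, 1.30 and 1.54 FPKM in knock-out colons, against 1.39, 1.56 and 2.0 FPKM in wild-type colons. Both overlapped, at -0.09 and -0.14. Bmi1 had 7.46, 6.11 and 6.84 FPKM in knock-out colons, against 6.59, 6.16 and 5.99 FPKM in wild-type colons. Pcgf2 had 10.97, 10.8 and 11.9 FPKM in knock-out colons, against 9.31, 13.6 and 9.78 FPKM in wild-type colons. Wild-type library 2 had the highest Pcgf2 level of all, so those groups overlapped, and log2 fold changes were 0.10 for Bmi1 and 0.05 for Pcgf2. Cbx2, below the minimum, had 0.62, 0.73 and 0.78 FPKM in knock-out colons, against 1.49, 1.01 and 1.27 FPKM in wild-type colons. Its groups did not overlap; with the minimum set at 0.1 FPKM its log2 fold change was -0.40 with a limma adjusted p of 0.420.

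Among the variant PRC1 genes Pcgf3 had the lowest unadjusted p of all members. Pcgf3 had 24.5, 28.7 and 27.9 FPKM in knock-out colons, against 20.7, 23.8 and 18.8 FPKM in wild-type colons. All knock-outs lay above all wild-types, with a log2 fold change of 0.35 ± 0.11 (SE) and a limma adjusted p of 0.396; without wild-type library 2 it was 0.43 with 0.0339, and with the HOX covariate 0.20 with 0.994. Pcgf5 had 7.11, 7.91 and 8.13 FPKM in knock-out colons, against 11.01, 7.80 and 10.3 FPKM in wild-type colons. Here wild-type library 2 lay among the knock-outs, at a log2 fold change of -0.29 and an adjusted p of 0.408, without that library -0.42 with 0.0385, and with the HOX covariate -0.07 with 0.994. Pcgf1, Pcgf6 and Kdm2b lay between -0.13 and 0.08.

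Kdm6a, the X-linked H3K27 demethylase, had 5.69, 4.80 and 5.30 FPKM in knock-out colons, against 5.88, 4.65 and 5.31 FPKM in wild-type colons, a log2 fold change of 0.00. Kdm6b had 11.4, 9.48 and 11.2 FPKM in knock-out colons, against 8.71, 9.91 and 9.50 FPKM in wild-type colons, a log2 fold change of 0.17 with an adjusted p of 0.477. The groups overlapped for both genes.

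Of the other lists in colon, 0 genes passed the limma test. Among 22 other PRC1 partners 2 had an unadjusted p under 0.05, against 12.5% of all genes: Hdac1 at 0.69 and Scmh1 at -0.32. Hdac1 had 129, 126 and 112 FPKM in knock-out colons, against 72.6, 114 and 51.4 FPKM in wild-type colons, with wild-type library 2 again among the knock-outs. Among 10 developmental target genes above the minimum, 7 were positive, against 44.6% of all genes, and 1 had an unadjusted p under 0.05, Gata5, with 2.14, 2.12 and 2.08 FPKM in knock-out colons, against 0.74, 1.82 and 0.53 FPKM in wild-type colons. Tbx3, another of them, had 10.9, 7.29 and 8.32 FPKM in knock-out colons, against 0.46, 9.39 and 0.61 FPKM in wild-type colons. In both genes wild-type library 2 was by far the highest wild-type. Of 27 proliferation genes 19 were positive, with a median of 0.33 and 0 at an unadjusted p under 0.05.

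The 2 systems did not share a direction more often for the members than for other genes. Of 26 members tested in both, 13 had the same sign, 50%, against 53.4% of 8747 genes, with 9 lower and 4 higher in both. EZH2 and SUZ12 were negative in RKO cells, at -0.25 and -0.16, and positive in colon, both at 0.25. PCGF5 was negative in both, at -0.19 in RKO cells and -0.29 in colon. The tables were normalized separately, and a difference between the systems was not tested.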

How the data were processed

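RNA was measured in 6 RKO and 6 mouse colon libraries by sequencing polyadenylated RNA, per the labels' protocols. Per the submitters' processing notes, the tools included edgeR, HTSeq, Bowtie2 and HISAT (versions and roles not given) and the human build was hg19; a mouse build is not given in the sources used here. The mouse values are FPKM, per the file headers. The RKO table is named FPKM after ComBat by the authors, but its sums are far above those of FPKM, so its deposited values are called signal here, on a scale like normalized counts after a batch adjustment whose batches are not given. The test had been written for FPKM and was kept. Read depth is unknown, so no counting interval is given, and adjustment of values towards a batch mean could narrow or widen group differences.

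From the deposited values, log2(value + 1) was computed within each table, genes averaging 1 or more across the 6 libraries entered the test, and groups were compared over all genes by the moderated test of limma 3.58.1 (R 4.3.3) with a variance trend, with Benjamini-Hochberg adjustment over all genes tested and a threshold of 0.05. The script was tested on simulated data. Paralog ratios were compared by exact two-sided permutation over libraries; RNF2 to RING1 could not be computed in RKO cells. GC content came from the longest GENCODE v29 transcript per symbol, which 84.1% of RKO genes matched, and its trend was a lowess fit with a span of 0.3. Motifs were searched in RefSeq promoter windows.

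The members and lists were chosen with earlier results of these data known. Named with values in every library were called members, the 10 members with the lowest unadjusted p in each system and both genes of each paralog pair; of each other list, called genes and up to 4 with the lowest unadjusted p. Alternatives were other pseudocounts (0.1 and 10), minimum means (0.1 and 10), 3 scalings (equal sums, quantile, median centring), robust variance, the replicate number as a block, each library left out, GC trend removed, a HOX position covariate in colon and, added after seeing the data, a block of RKO libraries that share equal values. In that block the RKO libraries without a sharing partner formed the last pair. No per-sample column was left unused.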

Additional observations from a re-analysis of the deposited data

How the results depend on the processing

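The count of Polycomb genes called in RKO cells, 1, was the same under other pseudocounts, minimums, scalings, robust variance and GC removal. It was 0 with the replicate block, 0 with the block of libraries that share values, and 0 in each of the 6 fits that leave out 1 library. Over all genes there were 178 calls in the main fit. Leaving out doxycycline library 1, 2 or 3 left 24, 17 and 1 of all genes called. Leaving out library 1, 2 or 3 without doxycycline left 3, 1 and 1. The replicate block left 1 call over all genes and the shared-value block 0 (1670 at an unadjusted p under 0.05, by limma). EZH2 kept its log2 fold change of -0.25 under the replicate block, with a limma adjusted p of 0.104. Same-numbered libraries correlated in their deviations at 0.08, -0.53 and 0.06 in RKO cells and -0.45, -0.14 and 0.15 in colon. Whether equal numbers mark a pairing cannot be told from these values. Doxycycline 2 and no doxycycline 2 also shared 310 equal values. In colon the count of members called, 0, was 0 to 3 over the fits that leave out 1 library, 3 without wild-type library 2, and 0 under the other alternatives, the replicate block included. The cause of these changes was not tested.

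Some log2 fold changes changed sign, and none of these passed the threshold in either fit; Ezh2 (0.25) and Ezh1 (-0.14) in colon were the larger of them. With the GC trend removed, log2 fold changes were -0.00196 for KDM6B, -0.00153 for CBX8 and 0.0209 for BMI1 in RKO cells. With the HOX position covariate they were -0.0928 for Ezh2, 0.0111 for Ezh1, -0.195 for Pcgf2 and 0.0787 for Kdm6a, and Kdm6a was 0.0194, 0.0112 and 0.0141 under equal sums, quantile and median centring. Leaving out 1 library gave -0.108 to 0.0210 for BMI1 in RKO cells, and in colon -0.192 to 0.0839 for Cbx7, -0.0418 to 0.210 for Pcgf2 and -0.0756 to 0.0665 for Kdm6a. Differences of paralog ratios ranged likewise over -0.130 to 0.0366 for PCGF2 to BMI1 in RKO cells, and in colon over -0.180 to 0.114 for Pcgf2 to Bmi1 and -0.201 to 0.0498 for Cbx8 to Cbx7.

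With 3 libraries a group and unknown depth, small differences cannot be resolved, and a value that missed the threshold does not show that groups were alike.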

Other observations

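The Polycomb repressive deubiquitinase, which removes the ubiquitin that PRC1 places, and enzymes of H3K27 acetylation and H3K36 methylation gave no calls. In RKO cells 10 deubiquitinase genes had a median log2 fold change of 0.01, with 5 positive, 0 limma calls and 0 at an unadjusted p under 0.05. The 12 enzymes had a median of -0.01, with 0 limma calls and 1 at an unadjusted p under 0.05, against 17% of all genes. That 1 was PHF8, a histone demethylase, at 0.12. In colon the same lists had medians of -0.10 over 10 genes and -0.07 over 12 genes, each with 0 limma calls and 0 at an unadjusted p under 0.05. The 7 COMPASS subunits tested in colon had a median of 0.00, with 0 limma calls and 0 at an unadjusted p under 0.05. Lcor and Lcorl, partners of PRC2, were positive in colon, at 0.28 and 0.33, and negative in RKO cells, at -0.09 and -0.16, and neither passed the limma test in either system. Their groups overlapped except for LCOR in RKO cells, which had signals of 437, 406 and 439 with doxycycline, against 446, 448 and 472 without.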
